A study of Mus musculus with 30 samples.

Results

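The 7 genes here are Prdm9, whose protein marks where meiotic recombination begins, and the partner genes Zcwpw1, Hells, Cxxc1, Ewsr1, Ehmt2 and Cdyl. They were found as the rows of the deposited table whose Ensembl identifiers carry these symbols, 1 row each, 7 of 65534 rows. The table holds TPM, a transcript level corrected for gene length and scaled to a fixed library total, for polyadenylated RNA. It came from germ cell preparations of testes of male mice, with 1 library per animal. The animals were C57BL/6J with under 10% 129S1/SvImJ background. At 8 days post partum (dpp) there were 5 Prdm9-/-, 2 Prdm9+/- and 3 Prdm9+/+ libraries, at 12 dpp 5 Prdm9-/-, 4 Prdm9+/- and 1 Prdm9+/+, and at 16 dpp 5 Prdm9-/-, 3 Prdm9+/- and 2 Prdm9+/+. The Prdm9-/- libraries are called mutant, and the Prdm9+/- and Prdm9+/+ libraries of an age together non-mutant, so most non-mutants at 12 and 16 dpp carried 1 mutant allele. The labels do not say which part of the gene the mutant allele lacks. A value for the gene counts reads from any exon that is still transcribed, so it does not check the lesion itself.

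PRDM9 is a histone methyltransferase made only in germ cells entering meiosis. An array of zinc fingers carries it to particular DNA sequences, where it methylates H3K4 and H3K36 and so marks the hotspots at which recombination starts. In the mouse testis the first wave of germ cells moves through these steps together, from spermatogonia through leptotene and zygotene to pachytene, so age after birth stands for progress into meiosis. ZCWPW1 reads the pair of marks that PRDM9 leaves, HELLS is an SNF2-type remodeller that opens nucleosomes with PRDM9, and CXXC1, EWSR1, EHMT2 and CDYL are nuclear proteins known to bind PRDM9 in spermatocytes.

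The 3 genes whose level changed most between ages were Prdm9, Zcwpw1 and Hells, and their promoter sequences are shown because these genes rose together in non-mutants. Each line gives the 250 bases before the RefSeq transcription start (GRCm38.p6), read 5′ to 3′ on the strand of the gene. Capitals mark a match to 1 of 4 motifs searched on both strands. The motifs were CNCCTCAG, the site known for the meiotic entry factor STRA8; TTTCCCGC, TTTGGCGC, TTTCGCGC or TTTGCCGC for E2F; TGACGTCA for CREB and CREM; and the E-box CACGTG.
Prdm9, chr17:15564355-15564604, minus strand: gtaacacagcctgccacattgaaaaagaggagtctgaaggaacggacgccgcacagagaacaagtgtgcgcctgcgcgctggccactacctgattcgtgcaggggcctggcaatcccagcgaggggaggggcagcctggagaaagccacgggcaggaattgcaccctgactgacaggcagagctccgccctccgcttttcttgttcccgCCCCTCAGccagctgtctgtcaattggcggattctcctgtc
Zcwpw1, chr5:137787552-137787801, plus strand: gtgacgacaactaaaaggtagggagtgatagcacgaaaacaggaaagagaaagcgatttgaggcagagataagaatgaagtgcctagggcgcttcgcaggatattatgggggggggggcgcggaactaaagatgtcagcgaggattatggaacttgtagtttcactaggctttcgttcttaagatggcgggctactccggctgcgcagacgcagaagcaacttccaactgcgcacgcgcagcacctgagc
Hells, chr19:38930740-38930989, plus strand: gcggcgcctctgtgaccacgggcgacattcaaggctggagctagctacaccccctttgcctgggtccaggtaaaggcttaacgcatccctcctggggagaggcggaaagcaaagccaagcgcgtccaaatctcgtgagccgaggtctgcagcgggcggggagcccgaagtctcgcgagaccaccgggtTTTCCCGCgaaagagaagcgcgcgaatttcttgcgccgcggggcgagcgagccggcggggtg
The Prdm9 window held 1 STRA8-type site, CCCCTCAG, whose first base lies 41 bases before the start. Such a site was in 6.42% of 32851 windows of the same length across the RefSeq table. The Hells window held 1 E2F-type site, TTTCCCGC, 62 bases before the start, and 1.86% of windows held an E2F motif. The Zcwpw1 window matched none of the 4 motifs. The windows held 13, 16 and 28 CpG dinucleotides for Prdm9, Zcwpw1 and Hells, against a median of 6 over all windows. Each window shown for Prdm9 and Zcwpw1 is that of the RefSeq start nearest to the annotated start of the gene. Both genes have a second RefSeq start, whose window held none of the 4 motifs, with 9 CpG dinucleotides for Prdm9 and 13 for Zcwpw1. A match of letters is a description of the sequence and not a measured binding site.

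The libraries were not pure germ cells. The summed level of 14 Sertoli cell markers lay between 7107 and 10780 TPM over all 30 libraries, and none of these markers was at 0 in any group. The 15 markers of preleptotene to zygotene cells that the table holds, of 17 listed, summed to 224 to 774 TPM in mutants and 252 to 544 TPM in non-mutants at 8 dpp, to 900 to 1496 and 1107 to 1574 TPM at 12 dpp, and to 2184 to 2648 and 2237 to 2959 TPM at 16 dpp. The 18 pachytene and diplotene markers differed at 16 dpp, with sums of 336 to 419 TPM in mutants against 603 to 2273 TPM in non-mutants. Leydig, macrophage and leukocyte, endothelial and erythroid marker sums were each higher in the mutant in 5 of 5 litter pairs at 16 dpp, with overlapping ranges. The 10 Leydig cell markers summed to 342 to 715 TPM in mutants and 242 to 564 TPM in non-mutants, the 10 macrophage and leukocyte markers to 148 to 283 and 109 to 219 TPM, the 8 endothelial markers to 77.8 to 107 and 53.4 to 98.6 TPM, and the 6 erythroid markers to 191 to 720.0 and 94.3 to 463 TPM. None of these markers was at 0 throughout a group, and their part in the 16 dpp results was not tested. The sums of the Sertoli markers and of 8 peritubular myoid markers were each higher in the mutant in 3 of 5 pairs at 16 dpp. The myoid sums were 724 to 1487 TPM in mutants and 755 to 1255 TPM in non-mutants. In such mixed tissue, fewer cells of a type and less RNA per cell cannot be told apart. The number of reads in each library is unknown, because TPM keeps no depth.

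Prdm9 (ENSMUSG00000051977) lies on the minus strand of chromosome 17, from 15543079 to 15564354 in GRCm38. It was the lowest and the most variable of the 7 genes, with a lowest library at 1.82 TPM, a median of 9.07 and a highest library at 34.4 TPM. The order of its group means was 25.1 ± 5.80 TPM in non-mutants at 16 dpp, 18.04 ± 5.64 in non-mutants at 12 dpp, 10.0 ± 2.14 in mutants at 16 dpp, 9.52 ± 5.47 in mutants at 12 dpp, 7.23 ± 1.57 in mutants at 8 dpp and 4.80 ± 1.70 in non-mutants at 8 dpp (SD, n = 5 each). The mutant means at 16 and 12 dpp, and those at 12 and 8 dpp, are neighbours in this order and differed by less than the larger SD, in both cases the SD of 5.47 TPM at 12 dpp, which includes 1 library far above the other 4. The mutant means at 16 and 8 dpp differed by more than the larger of their SDs. Prdm9 transcript was detected in every mutant library, with means between 7.23 and 10.0 TPM across the 3 ages.

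At 16 dpp the litter mates can be read pair by pair. The first header line of the table gives a litter number for each library. Each mutant was paired with the non-mutant of its litter that has the adjacent serial number in the second header line. At 8 dpp 2 of the 5 pairs come from litter 8. Prdm9 had 10.9 TPM in the mutant and 23.4 in its Prdm9+/- mate in litter 2, 6.89 against 34.4 (Prdm9+/+) in litter 4, 9.78 against 21.3 (Prdm9+/+) in litter 5, 12.8 against 26.4 (Prdm9+/-) in litter 6 and 9.68 against 19.7 (Prdm9+/-) in litter 7. All 5 mutants were below their mates, at 0.200 to 0.491 of the mate's level, and the groups did not overlap. Ranges apart in this direction occurred in 2.28% of the 20021 rows tested. The difference was -1.24 on the scale of log2(TPM + 1) with a standard error (SE) of 0.264 (limma adjusted p = 0.00352), a fold of 0.423 with a 95% interval of 0.291 to 0.616. Against the 2 Prdm9+/+ libraries alone it was -1.38 and missed the threshold (adjusted p = 0.0904).

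At 12 dpp the direction was the same in 4 litters and opposite in 1. The mutants of litters 1, 9, 11 and 12 had 7.03, 6.34, 6.83 and 8.16 TPM, and their mates had 20.5 (Prdm9+/-), 16.0 (Prdm9+/-), 21.2 (Prdm9+/+) and 23.3 TPM (Prdm9+/-). In litter 13 the library labelled Prdm9-/- replicate 5 had 19.2 TPM and its mate, labelled Prdm9+/- replicate 4, had 9.16 TPM. The first lies among the other non-mutants, and the second lies above the other 4 mutants, at 6.34 to 8.16 TPM, and below the other 4 non-mutants. Both were kept under their labels. Whether the 2 libraries were exchanged was not tested, and an exchange would change the 12 dpp difference and both age steps. The limma difference of -0.91 (SE 0.264) did not pass (adjusted p = 1). Without litter 13, which was left out because of its Prdm9 level, it was -1.39 (adjusted p = 0.0310). A choice made on the tested values favours a small p, so this p is not a test.

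At 8 dpp the mutants were not lower. They had 7.38, 6.97, 8.98, 4.77 and 8.03 TPM, against 5.40 and 6.10 TPM in Prdm9+/- and 1.82, 5.51 and 5.18 TPM in Prdm9+/+ libraries. In 4 of 5 litter pairs the mutant was the higher mate, the groups overlapped, and the difference of 0.55 (SE 0.264) was not called (limma adjusted p = 1, unadjusted p = 0.0464). It was 0.31 without Prdm9+/+ replicate 1, the library at 1.82 TPM, and 0.26 with Prdm9+/- libraries alone as non-mutants. A test within pairs in each age, by an exact two-sided sign-flip permutation, gave p = 0.125 at 8 dpp, 0.125 at 12 dpp and 0.0625 at 16 dpp, the last being the smallest that 5 pairs allow. Over all 15 pairs the mean log2 difference was -0.53 ± 1.08 (SD), with 10 of 15 mutants lower (p = 0.0787, exact sign-flip permutation). After Benjamini-Hochberg adjustment over these 4 tests each was 0.125.

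**Figure D1:**
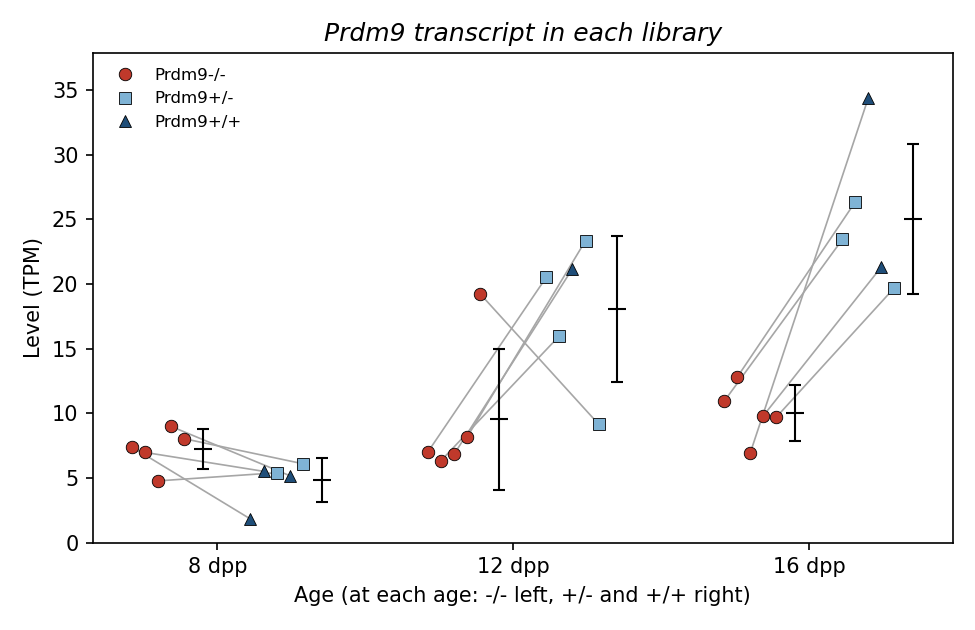
Prdm9 level in TPM (vertical axis, from 0) in each of the 30 libraries at 8, 12 and 16 dpp, with Prdm9-/- circles left and Prdm9+/- squares and Prdm9+/+ triangles right at each age. Grey lines join mates of a litter pair and bars give the mean and SD of 5 libraries; all 5 lines rise to the right at 16 dpp, 4 do at 12 dpp, and the pair at 19.2 and 9.16 TPM crosses them.

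The change of Prdm9 with age was read within each class, and the 2 steps share the 12 dpp libraries. Between 8 and 12 dpp the non-mutants rose, with 9.16 to 23.3 TPM at 12 dpp against 1.82 to 6.10 TPM at 8 dpp, a log2 change of 1.72 (SE 0.264, limma adjusted p = 1.29e-05). The mutants had 6.34 to 19.2 TPM at 12 dpp against 4.77 to 8.98 TPM at 8 dpp, a change of 0.26 (SE 0.264, adjusted p = 0.502), which was -0.005 without Prdm9-/- replicate 5 at 12 dpp. The difference between these steps was -1.46 (SE 0.374, 95% interval -2.23 to -0.70), which was not called (limma adjusted p = 1, unadjusted p = 0.000523), where 0% of the 20021 rows passed and 367 had an unadjusted p under 0.05. Without litter 13, left out because of its Prdm9 level, the difference of steps was -1.94 (limma adjusted p = 0.0161). The choice was made on the tested values, which favours a small p, so this p is not a test. From 12 to 16 dpp neither class changed beyond the test, at 0.16 in mutants and 0.49 in non-mutants (adjusted p = 0.766 and 0.189). These changes were 0.43 in mutants without Prdm9-/- replicate 5 at 12 dpp and 0.28 in non-mutants without Prdm9+/- replicate 4 at 12 dpp.

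Set against the preleptotene to zygotene markers, Prdm9 differed between the classes in the same way at 16 dpp. Per 1000 TPM of the summed preleptotene to zygotene markers it stood at 2.60 to 5.81 TPM in mutants and at 6.66 to 13.3 TPM in non-mutants at that age, with no overlap. At 12 dpp these values were 4.57 to 13.2 in mutants and 5.91 to 19.1 in non-mutants, and at 8 dpp 9.53 to 26.1 and 6.99 to 21.4. With the log2 of this marker sum as a covariate the 16 dpp difference was -1.20 (limma adjusted p = 0.00378), and with the Sertoli marker sum it was -1.27 (adjusted p = 0.00406). The preleptotene to zygotene sums were higher at 16 than at 12 dpp in both classes. Whether these markers stay on past zygotene was not tested, so their sum does not hold the number of early meiotic cells fixed. The pachytene markers, which also differed between the classes at 16 dpp, were not used as a covariate, and their part in the result was not tested.

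**Figure D2:**
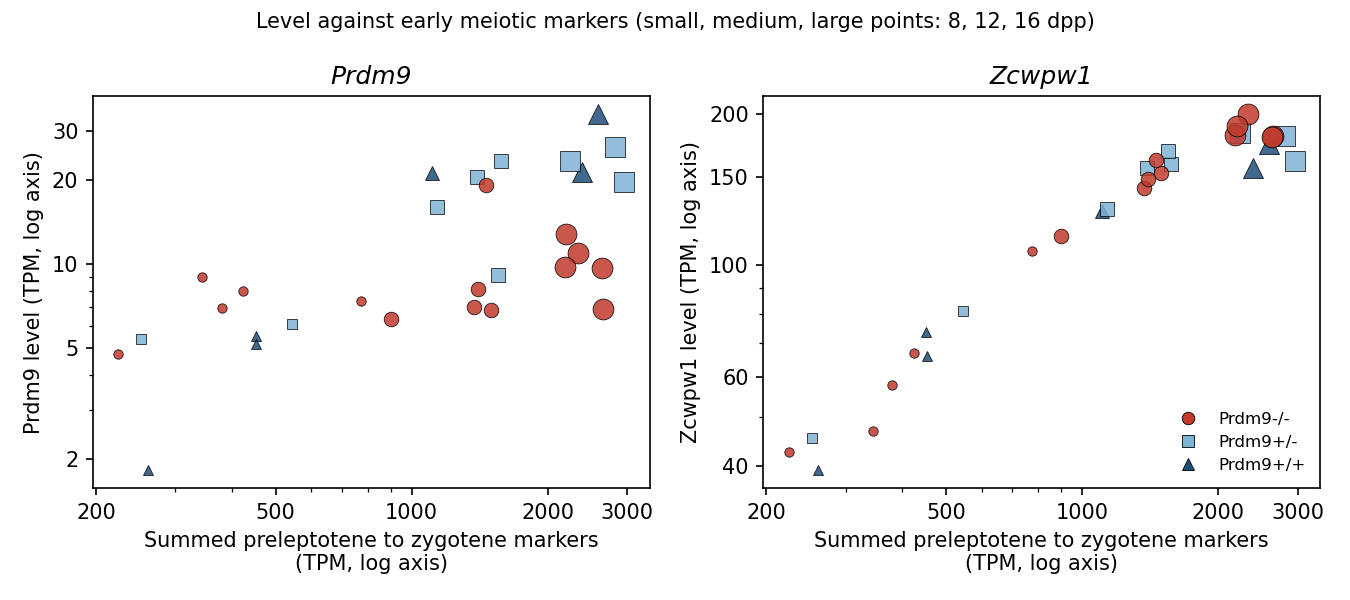
Prdm9 (left) and Zcwpw1 (right) levels in TPM against the summed TPM of 15 preleptotene to zygotene markers, both axes logarithmic, for 30 libraries; circles are Prdm9-/-, squares Prdm9+/- and triangles Prdm9+/+, and larger points are later ages. At 16 dpp the 5 Prdm9-/- points lie below the non-mutant points for Prdm9 (6.89 to 12.8 against 19.7 to 34.4 TPM), while for Zcwpw1 the classes overlap.

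None of the 6 partners was called between mutants and non-mutants at any age, and none had groups that did not overlap, as 0.18% of all rows did at 8 dpp, 0.2% at 12 dpp and 4.35% at 16 dpp. At 16 dpp Prdm9 was the 1 of 7 members called, where 3.26% of all rows tested were called (653 of 20021) and 2.75% were called lower. At 8 dpp 0 of 7 members were called (0% of all rows, with 417 rows or 2.08% at an unadjusted p under 0.05), and at 12 dpp 0 of 7 (0% of all rows, with 225 or 1.12% at an unadjusted p under 0.05). A p that misses the threshold does not show equal levels, so the intervals are given. At 16 dpp the 95% interval of the fold of mutants over non-mutants ran from 0.845 to 1.40 for Zcwpw1, 0.873 to 1.31 for Hells, 0.874 to 1.14 for Cxxc1, 0.911 to 1.15 for Ewsr1, 0.926 to 1.27 for Ehmt2 and 0.943 to 1.25 for Cdyl.

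**Figure D3:**
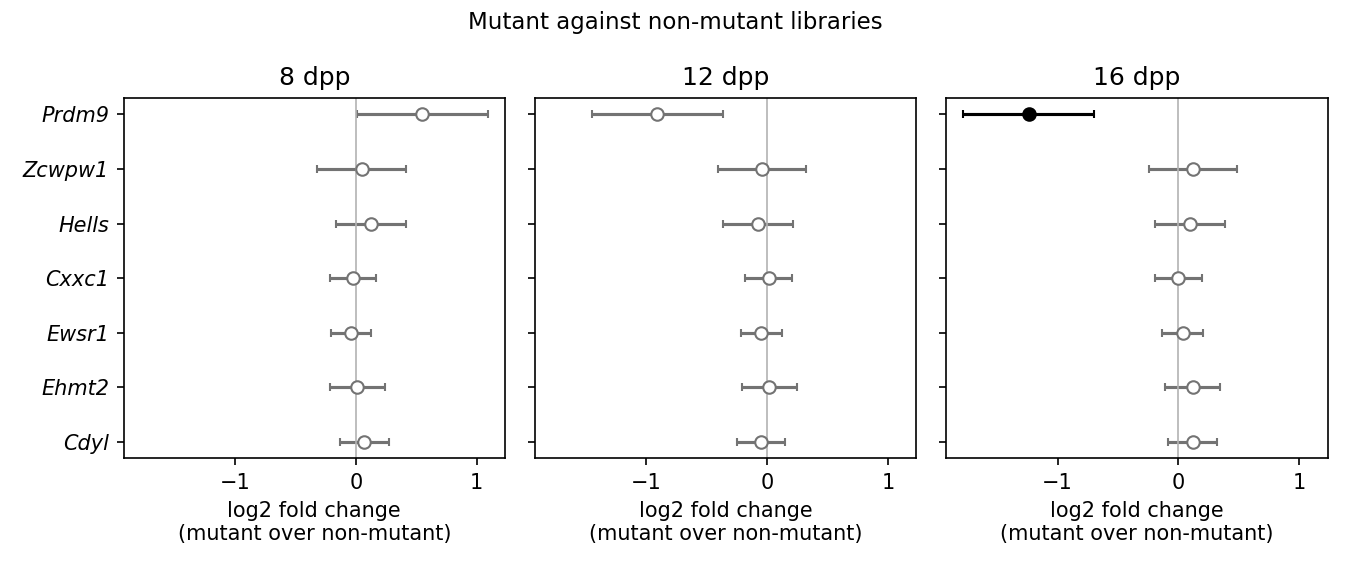
Log2 fold change of mutant over non-mutant (horizontal axis, on the scale of log2(TPM + 1)) for the 7 genes at 8, 12 and 16 dpp, with bars for 95% intervals of the limma fit; the filled point is the 1 value with an adjusted p under 0.05. Prdm9 lies at 0.55, -0.91 and -1.24 in order of age, and every partner interval covers 0.

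Zcwpw1 (ENSMUSG00000037108, chromosome 5, 137787798 to 137822621, plus strand) encodes the reader of the methyl marks that PRDM9 sets. Its level went up with age in both classes. At 8 dpp it had 42.6, 46.9, 57.8, 66.8 and 107 TPM in mutants and 39.1, 45.4, 65.9, 73.8 and 81.0 TPM in non-mutants. At 12 dpp it had 114, 142, 149, 153 and 162 TPM in mutants and 128, 129, 156, 159 and 169 TPM in non-mutants. The classes overlapped at both ages, and in each class every 12 dpp library was above every 8 dpp library.

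The rise of Zcwpw1 from 8 to 12 dpp was 1.22 in mutants (SE 0.179, limma adjusted p = 6.19e-06), a fold of 2.33, and 1.31 in non-mutants (SE 0.179, adjusted p = 2.39e-06), a fold of 2.48. The difference between these steps was -0.09 with a 95% interval of -0.61 to 0.43. With the Prdm9+/+ libraries alone as non-mutants, 1 of them at 12 dpp, the non-mutant rise missed the threshold (adjusted p = 0.0535). At 16 dpp it had 179.6, 181, 181, 189 and 199 TPM in mutants and 156, 161, 174, 181 and 183 TPM in non-mutants. The mutant was the higher mate in 5 of 5 litter pairs at 16 dpp, by 0.06 to 0.21 on the log2 scale, but the groups overlapped and the difference of 0.12 (SE 0.179) was not called (limma adjusted p = 0.837). Over all rows tested the median difference at 16 dpp was 0.07, or 0.02 under median-ratio scaling. How many rows were higher in 5 of 5 pairs was not counted. From 12 to 16 dpp the mutant libraries did not overlap, yet the change of 0.38 was not called (adjusted p = 0.179), nor was that of 0.21 in non-mutants (adjusted p = 0.427).

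Zcwpw1 has a neighbour that overlaps it. Its exons overlap those of Pilra on the opposite strand by 468 bases, 8.2% of its exon length, and whether reads were counted by strand is not given in the sources used here. Pilra averaged 6.88, 14.2 and 16.9 TPM in mutants and 5.21, 14.4 and 15.7 TPM in non-mutants at 8, 12 and 16 dpp, so both genes had higher means at later ages, with Pilra at the lower level. Their reads cannot be told apart in the shared bases.

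Hells (ENSMUSG00000025001, chromosome 19, 38930915 to 38971051, plus strand) encodes the remodeller that acts with PRDM9 and, in other cells, supports DNA methylation. It rose between 8 and 12 dpp in both classes by less than Zcwpw1 did. Mutants had 126, 155, 173, 174 and 179.9 TPM at 12 dpp, against 91.3, 103, 111, 111 and 149.8 TPM at 8 dpp, a change of 0.52 (SE 0.142, limma adjusted p = 0.00656) with overlapping ages. Non-mutants had 149.8, 157, 170.4, 174 and 199 TPM at 12 dpp, against 75.0, 77.6, 117, 126 and 131 TPM at 8 dpp, a change of 0.72 (SE 0.142, adjusted p = 0.000293) with ages apart. This change was not called with the Prdm9+/+ libraries alone as non-mutants (adjusted p = 0.282). At 16 dpp Hells had 159, 165, 179, 194 and 229 TPM in mutants and 158, 158, 175, 178 and 190.3 TPM in non-mutants, a difference of 0.10 (SE 0.142, adjusted p = 0.839). In all 5 pairs at 16 dpp the mutant was level with or above its mate, by 0.004 to 0.27, where the median difference over all rows was 0.07.

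Over the 15 non-mutant libraries Zcwpw1 and Hells varied together also within an age. The Pearson correlation of log2(TPM + 1) was 0.955, and 0.910 after the mean of each age was subtracted. For Prdm9 these values were 0.913 and 0.417 with Zcwpw1 and 0.818 and 0.295 with Hells. These libraries share litters, ages and the mix of cells in the sample, so the values are descriptions.

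Cdyl (ENSMUSG00000059288, chromosome 13, 35659833 to 35874063, plus strand) encodes a chromodomain protein that binds methylated H3K9. It was the second lowest member, between 29.7 and 49.0 TPM in all 30 libraries, and had its highest means at 12 dpp in both classes. Non-mutants rose to 39.9, 43.7, 47.0, 47.8 and 49.0 TPM at 12 dpp, against 29.7, 31.8, 38.8, 39.4 and 43.3 TPM at 8 dpp, a change of 0.32 (SE 0.0988, limma adjusted p = 0.0149), although the ages overlapped. This call was lost without Prdm9+/+ replicate 1 or without Prdm9+/- replicate 1 at 8 dpp, the lowest libraries of that group. With Prdm9+/+ libraries alone as non-mutants the change was 0.13 (adjusted p = 0.738). In mutants the change was 0.20 (adjusted p = 0.139), and the difference of the steps was -0.12 with a 95% interval of -0.41 to 0.17. From 12 to 16 dpp Cdyl had a change of -0.10 in mutants (adjusted p = 0.594) and -0.27 in non-mutants (adjusted p = 0.0535). Fitting litter as a random effect, the non-mutant change passed the threshold (adjusted p = 0.0374).

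Ehmt2 (ENSMUSG00000013787, chromosome 17, 34898469 to 34914052, plus strand) encodes G9a, the main methyltransferase for mono- and dimethylated H3K9. It was the 1 member called between 12 and 16 dpp. Non-mutants had 133, 142, 149, 167 and 197 TPM at 16 dpp, against 181, 198, 199.5, 202 and 220.0 TPM at 12 dpp, a change of -0.35 (SE 0.112, limma adjusted p = 0.0233) with overlapping ages. Mutants had 154, 165, 170.3, 172 and 187 TPM at 16 dpp, against 184, 193, 199, 205 and 234 TPM at 12 dpp, a change of -0.25 (adjusted p = 0.145). The difference of these steps was 0.10 with a 95% interval of -0.22 to 0.42, so the data do not separate the classes. The non-mutant call was lost without any 1 of Prdm9+/- replicate 2 at 12 dpp and Prdm9+/+ replicates 1 and 2 and Prdm9+/- replicate 3 at 16 dpp, where the change ran no closer to 0 than -0.30. It was also lost with the Prdm9+/+ or the Prdm9+/- libraries alone as non-mutants (-0.52 and -0.24, adjusted p = 0.260 and 0.287). Sertoli marker sums were 8153 to 8886 TPM at 16 dpp and 9020 to 10780 TPM at 12 dpp in these non-mutants, and their part in the result was not tested.

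Cxxc1 (ENSMUSG00000024560, chromosome 18, 74216124 to 74221496, plus strand) encodes the CpG-binding subunit of the SETD1 H3K4 methyltransferase complexes. Its group means lay closest together of the 7, between 86.2 and 92.7 TPM, with group SDs between 6.57 and 13.9 TPM. No neighbours in the order of its 6 means differed by more than the larger SD. Ewsr1 (ENSMUSG00000009079, chromosome 11, 5069689 to 5099266, minus strand) encodes an RNA-binding protein of the FET family and had the highest level of the 7, from 267 to 399 TPM. Its means were 350.2, 337 and 319 TPM in mutants and 359, 349 and 313 TPM in non-mutants at 8, 12 and 16 dpp, and no age step was called. Without Prdm9+/- replicate 1 at 16 dpp, its highest library there, the 12 to 16 dpp change in non-mutants was -0.22 and was called (adjusted p = 0.0458), against -0.16 with it (adjusted p = 0.158). Its exons overlap those of Rhbdd3 on the opposite strand by 258 bases, 4.4% of its exon length, and Rhbdd3 averaged 30.2 TPM, well below Ewsr1.

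**Figure D4:**
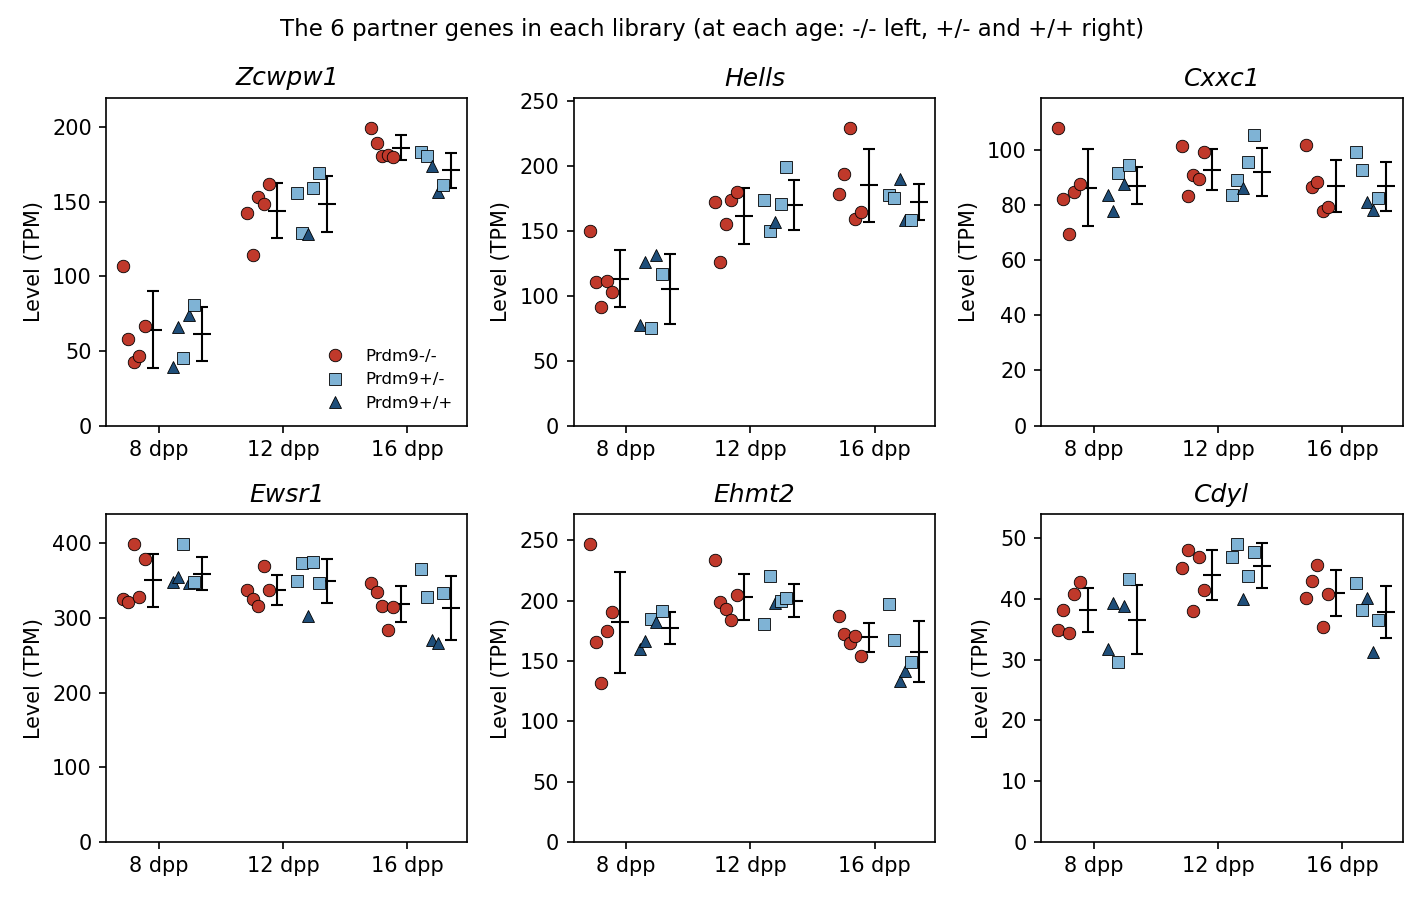
Levels in TPM (vertical axes, from 0, 1 scale per gene) of the 6 partners in each library at 8, 12 and 16 dpp, Prdm9-/- left and non-mutants right at each age, with the mean and SD of 5 libraries beside the points. Zcwpw1 and Hells are higher at 12 than at 8 dpp in both classes, and the classes overlap at each age for each of the 6 genes.

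Counted over the list, 4 of 7 members rose between 8 and 12 dpp in non-mutants (Prdm9, Zcwpw1, Hells and Cdyl) and 0 fell, where 32.5% of all rows were called and 20.3% were called higher. That background held 4067 higher and 2430 lower rows, but 3207 higher and 3217 lower under median-ratio scaling, so the even or uneven split of all rows depends on the scaling. In mutants 2 of 7 rose (Zcwpw1 and Hells) and 0 fell, where 29.7% of rows were called and 17.5% called higher. Ages did not overlap for 3 members in non-mutants (21.2% of all rows) and for Zcwpw1 alone in mutants (16.5% of all rows). From 12 to 16 dpp 1 of 7 fell in non-mutants and 0 of 7 were called in mutants, where 21.8% of rows in non-mutants (13% lower) and 12.1% in mutants were called. Ages did not overlap for 0 members in non-mutants (12.7% of all rows) and for Zcwpw1 in mutants (12.5% of all rows). For the non-mutants that background held 1777 higher and 2595 lower rows, but 2550 higher and 1721 lower under median-ratio scaling. The difference of the later steps called 0 of 7 members and 1.35% of rows.

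**Figure D5:**
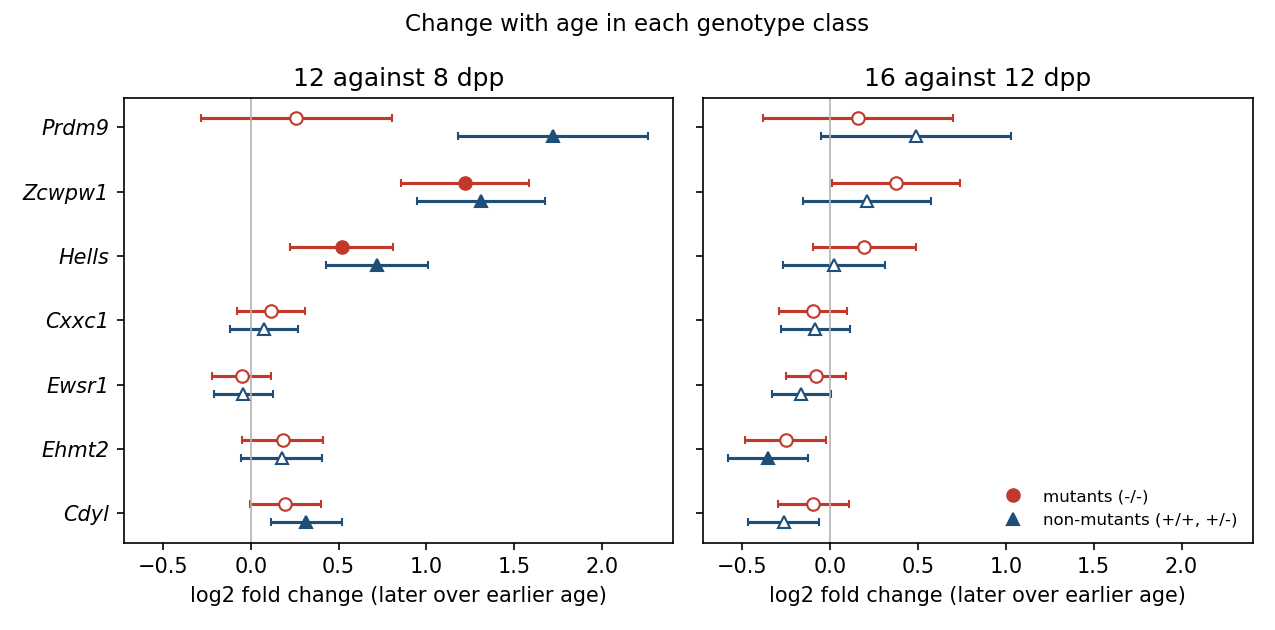
Log2 fold change of the later over the earlier age for the 7 genes, 12 against 8 dpp (left) and 16 against 12 dpp (right), with 95% intervals; circles are mutants and triangles non-mutants, and filled points have an adjusted p under 0.05. The intervals of the classes overlap for each partner at both steps, and for Prdm9 at the first step they lie apart, at 0.26 in mutants and 1.72 in non-mutants.

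Among the non-mutants, Prdm9+/- and Prdm9+/+ libraries were compared in a fit with age as a term, 9 against 6 libraries. No member was called, and no row at all (0% of 18668, with 1972 or 10.6% at an unadjusted p under 0.05). Prdm9 itself differed by 0.01 with a 95% interval of -0.50 to 0.51. Ewsr1 had the smallest p of the members, with a difference of 0.23 (SE 0.0551, limma adjusted p = 0.393, unadjusted p = 0.000829). At 16 dpp it had 366, 328 and 333 TPM in Prdm9+/- libraries against 271 and 267 TPM in Prdm9+/+ libraries, with no overlap, as in 23.9% of the 18668 rows. At 12 dpp the Prdm9+/- libraries had 346 to 374 TPM and the Prdm9+/+ library 302 TPM, and at 8 dpp 348 and 399 TPM stood against 346 to 355 TPM. Ehmt2 and Cxxc1 differed by 0.17 and 0.16 (adjusted p = 0.436 and 0.416). The median difference over all rows was 0.09, or 0.01 under median-ratio scaling, so part of these values is shared by the whole set of rows. Under the alternatives the lowest differences were 0.14 for Ewsr1, 0.0864 for Ehmt2 and 0.0745 for Cxxc1.

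The genes most like each member were taken as those with the highest Pearson correlation of log2(TPM + 1) over the 15 non-mutant libraries. For Prdm9 they were Cpne8 (0.961), Slc25a21 (0.959), Map7d3 (0.951), Rpgr (0.950) and Slc35f2 (0.948). Cpne8 ran closest in level too, with means of 5.04, 18.6 and 24.3 TPM at 8, 12 and 16 dpp. Zcwpw1 was most like Swt1 (0.993), Ecsit (0.993) and Prss50 (0.9925), and Hells most like Pum3 and Taf7l (0.973) and Dcaf13 (0.967). Ehmt2 was most like Cad (0.979), Mllt6 and Cabin1, Cdyl most like Polr3g (0.961), Rcbtb1 and Rcor2, Ewsr1 most like Cux2 (0.925), Psmd3 and Sart1, and Cxxc1 most like Plekhm1 (0.908), Akap8l and Btbd7. These likenesses describe libraries that share their cell mixture and age.

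Other genes that write, read or remove the same marks were described from lists. The 14 H3K36 methyltransferases and readers had 3 members lower in mutants at 16 dpp, 0 higher and 11 not called, where 3.26% of all rows were called and 2.75% lower, with a list median of 0.04 against 0.07 over all rows. These were Phf1 (-0.64, SE 0.127, limma adjusted p = 0.00145), a Tudor-domain reader of H3K36 methylation in Polycomb complexes, Mrgbp (-0.48, adjusted p = 0.00269), a subunit of the NuA4 acetyltransferase, and Psip1 (-0.37, adjusted p = 0.0117), a PWWP-domain reader. All 3 rose from 12 to 16 dpp in non-mutants, by 0.75, 0.63 and 0.52, a comparison that uses the same 16 dpp non-mutant libraries. None was called over that step in mutants, and the difference of the steps was called for 0 of the 14, or 1 under median-ratio scaling and 1 under quantile normalization. Under median-ratio scaling the list median at 16 dpp was -0.03, with 4 members lower. The 12 H3K4 and H3K36 demethylases had 1 member lower, Kdm4d (-0.78, SE 0.216, adjusted p = 0.0373), known as an H3K9 demethylase of the testis and also on the list of 16 H3K9 and HP1 genes, where it was again the 1 called.

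The 16 H3K4 methyltransferase and complex genes and the 20 chromatin remodellers had 0 members called between mutants and non-mutants at any age. The same held for the 11 of 16 PRDM family genes that passed the filter and for the 5 closest paralogs of the partners. Pachytene marker sums, 336 to 419 TPM in mutants against 603 to 2273 TPM in non-mutants at 16 dpp, moved with the 4 genes called there, and their part in the result was not tested.

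Between 8 and 12 dpp in non-mutants 32.5% of all rows were called, 20.3% higher and 12.1% lower, and the lists are read against these shares. Here 6 of 16 H3K9 and HP1 genes rose and 2 fell, or 5 and 1 under quantile normalization. They were led by the methyltransferase gene Setdb2 (0.93, limma adjusted p = 2.41e-06) and by Mphosph8 (0.77), a reader of methylated H3K9. Of the H3K4 methyltransferase and complex genes 5 of 16 rose and 0 fell, but 2 rose and 1 fell under median-ratio scaling. Among them were Setd1a, the catalytic partner of CXXC1 (0.36, adjusted p = 0.00365), and Ash2l (0.33), a core subunit. Of the demethylases 5 of 12 rose, or 4 under median-ratio scaling and 3 under quantile normalization, with Kdm5b at 0.29 and Kdm5a at 0.41. Of the remodellers 2 of 20 rose, Smarca5 (0.38), the ISWI motor, and Chd5 (0.73), a smaller share than of all rows. Of the partners' paralogs 3 of 5 rose, Cdyl2 (0.61), Zcwpw2 (0.70) and the FET gene Taf15 (0.29). In the PRDM family 1 of 11 rose, Prdm4 (0.40), and 3 fell, or 4 under median-ratio scaling and 4 under quantile normalization. Zfpm2 (-1.14), a GATA cofactor, and Prdm11 (-0.44) were among those that fell.

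More of the remodellers fell than rose at the step from 12 to 16 dpp, which shares the 12 dpp libraries with the earlier step. Of all rows 13% were called lower and 8.88% higher at this step in non-mutants, and 5.89% lower in mutants. In non-mutants 8 of 20 fell and 0 rose (7 and 0 under median-ratio scaling), among them Atrx (-0.74, limma adjusted p = 0.000910), Cdca7l (-0.58), whose paralog Cdca7 works with HELLS, and Chd7 (-0.80), with a list median of -0.19 against -0.09 over all rows. In mutants 3 of 20 fell, Chd7, Cdca7l and Chd4, with a median of -0.17 against -0.004 over all rows. Of the H3K4 methyltransferase and complex genes 5 of 16 fell in non-mutants and 0 rose, or 2 fell under median-ratio scaling. Among those that fell were Setd7, at -0.43, and Kmt2d, at -0.73. In mutants 1 of the 16 fell, Dpy30 (-0.25). Of the 14 H3K36 genes 4 rose and 3 fell in non-mutants. Ehmt1, the paralog and binding partner of Ehmt2, fell by 0.41 (adjusted p = 0.00340) in non-mutants.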

How the data were processed

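Polyadenylated RNA of 30 mouse testis germ cell preparations was analysed from the table the authors deposited. Its values are TPM per gene to 2 decimals, and the submitters' processing notes name Bowtie 1.0.0, RSEM 1.2.8 and mm10 (GRCm38), without role or order. The table stops inside the NONCODE identifiers, and 3.23 to 3.95% of each library's TPM lies outside it. TPM keeps no depth, so no counting error could be given.

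Rows with over 1 TPM in at least 5 libraries were kept: 20021, all 7 members among them, and 18668 for Prdm9+/- against Prdm9+/+. Log2(TPM + 1) was fitted in the 6 groups of class and age with limma 3.58.1 (R 4.3.3, trend), and Benjamini-Hochberg adjustment ran over all rows. A call is an adjusted p under 0.05. Fold changes on this scale understate changes of low genes such as Prdm9. The spread behind an SE is shared by all 6 groups. Per the file headers, litter numbers and adjacent serial numbers of the second header line pair 15 mutants with non-mutant mates. The pairs' deviations from their group means correlated at 0.0727 to 0.390, over 0.1 in 13 of 15, so litter was tried as a block. The 5 genes most like Prdm9 and the 3 most like each partner are named, and up to 4 called genes with the smallest p per list.

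The members and gene lists were chosen with earlier results of these data known. The marker sums were added as covariates after the results were seen. Sequences are from the RefSeq table of GRCm38.p6, where 6 members have a window; amino acid sequences are not used here. Of the genes that the naming rule picked, 1 is not reported here.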

Additional observations from a re-analysis of the deposited data

Results flagged for a closer look

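The values of 3 of 49 groups of a member hold a library that stands apart from the other 4, by Dixon's test at the 95% level, which chance alone passes in about 1 in 20 groups. The Prdm9 level of the library labelled Prdm9-/- replicate 5 at 12 dpp was 19.23 TPM, against 6.34 to 8.16 TPM in the other 4 mutants of that age. Its litter mate, labelled Prdm9+/- replicate 4, was the lowest non-mutant of that age at 9.16 TPM. In these mates Zcwpw1, at 162 and 169 TPM, and Hells, at 179.9 and 199 TPM, were the highest of their groups. Among the 8 dpp non-mutants Prdm9 was 1.82 TPM in Prdm9+/+ replicate 1, against 5.18 to 6.10 TPM in the other 4. That library also had the lowest Zcwpw1 level of the group, 39.1 TPM. Ewsr1 was 398.97 TPM in Prdm9+/- replicate 1 at 8 dpp, against 346 to 355 TPM in the other 4 non-mutants. Its litter mate, Prdm9-/- replicate 4, had 398 TPM, so the high value was shared by the pair.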

How the results depend on the processing

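Alternatives changed the pseudocount, filter, scaling, fitted groups, litter block, control genotype, litter 13, the marker covariates and each library in turn. Of the member values not called in the main analysis, 103 of 2371 changed sign under an alternative. With the replicate block of litter, Prdm9 at 16 dpp stayed at -1.24 (adjusted p = 0.0207 as a fixed term and 0.00126 as a random effect), and the block changed no other member call than that of Cdyl from 12 to 16 dpp. With each library left out, Prdm9 at 12 dpp ran from -1.18 to -0.81. Without litter 13, Prdm9 at 12 dpp was -1.39 (1 member called) and the difference of the 12 against 8 dpp steps called 1. That litter was left out because of its Prdm9 level, so these calls are not tests. With Prdm9+/+ libraries alone as non-mutants, Prdm9 at 16 dpp was -1.38 (0 called), and the 12 against 8 dpp step called 1 member in place of 4, here with 1 library at 12 dpp. For 16 against 12 dpp in non-mutants 1 member was called, 2 with the filter on the mean, with quantile normalization and with litter as a random effect, 0 with Prdm9+/+ or Prdm9+/- libraries alone, and 0 to 3 with each library left out. The count of 0 came without Prdm9+/- replicate 2 at 12 dpp or, at 16 dpp, without Prdm9+/+ replicate 1 or 2 or Prdm9+/- replicate 3, and the 3 without Prdm9+/- replicate 1 at 16 dpp. For 16 against 12 dpp in mutants the fit of those groups alone called 2 members, Zcwpw1 and Ehmt2, in place of 0. For 12 against 8 dpp in mutants 2 members were called, and 3 without Prdm9-/- replicate 1 at 8 dpp. The third was Ehmt2, at 0.30 without that library (limma adjusted p = 0.0229) and 0.18 with it (adjusted p = 0.236). That library had the highest Ehmt2 level of its group, 247 TPM. Within litter pairs Prdm9 was -0.64 without litter 13 (p = 0.0407) and -0.53 with the pairing ignored (p = 0.0228), both by exact permutation. The first p again follows a choice made on the tested values. The count of all rows called at 16 dpp was 653, 347 in the fit of that age alone, 1181 with no filter, 1103 with litter as a random effect and 169 against Prdm9+/+ libraries alone; the cause was not tested. Prdm9 is a low gene here, between 1.82 and 34.4 TPM, and its counting error is unknown.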
